A study of Homo sapiens with 3 samples.

Results

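Cluster 1 of the ribociclib-resistant cells was made up of 2411 cells, chosen as those with the number 1 in the cell clustering (Seurat, resolution 0.8) that the authors deposited, out of 19237 annotated cells in 14 clusters. Of its cells, 1025 were resistant cells from the coculture, 1372 were resistant cells from the resistant monoculture and 14 were annotated as sensitive cells from the coculture. The sensitive monoculture gave 0 of 3329 cells, which allows a share of up to 0.0901%. Resistant cells were thus 99.4% of the cluster, and the values below are for those 2397 cells unless stated. They were set against the 10854 resistant cells of the 5 other clusters that hold most resistant cells, numbered 0, 2, 5, 6 and 10. A further 598 of the 13849 annotated resistant cells lay in none of these 6 clusters.

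All cells came from CAMA-1, an established estrogen receptor-positive (ER+) human breast cancer line. Three-dimensional spheroids were started from 2000 cells, either 100% sensitive, 50% sensitive and 50% resistant (the coculture) or 0% sensitive (the resistant monoculture), and all of them were kept in 1 µM ribociclib for 11 days, so no untreated cells were measured. Sensitive cells expressed mVenus, a yellow fluorescent protein. Resistant cells, a single derivative of CAMA-1 obtained by months of growth in ribociclib, expressed mCherry, a red one. Each condition was a single 10X Genomics 3' library, in which every captured RNA molecule is counted once by its unique molecular identifier (UMI). Condition and library therefore cannot be told apart, cells are not replicates, and no test across samples was possible. Because the clusters were made from these same genes, differences between them are described without p-values.

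Ribociclib inhibits the cyclin-dependent kinases CDK4 and CDK6, which with D-type cyclins phosphorylate the retinoblastoma protein RB. Phosphorylated RB releases E2F transcription factors, and these switch on the genes for DNA synthesis that a cell needs to pass from G1 into S phase. MGP (matrix Gla protein), the gene given as the marker of cluster 1, encodes a small secreted protein that needs vitamin K for its modification and is known as an inhibitor of calcification.

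The authors called a phase for every cell from Seurat scores of S and G2M genes. In cluster 1, 927 of 1025 coculture cells (90.4%, 95% exact binomial interval 88.5 to 92.2%) and 1239 of 1372 monoculture cells (90.3%, 88.6 to 91.8%) were called S. The rest were mostly called G2M, with 6.73% (5.28 to 8.44%) and 7.07% (5.77 to 8.56%), and 29 cells (2.83%) and 36 cells (2.62%) were called G1. These intervals, like all others here, cover counting error only. Among the other resistant clusters, cluster 10 alone had a similar make-up, with 93.8% S calls in the coculture and 96.6% in the monoculture. Cluster 2 was 98.2% and 97.9% G2M, and the S calls of clusters 0, 5 and 6 ran from 5.98% to 31.6%. Cluster 1 held 57.0% of all S-called resistant cells of the coculture (927 of 1627) and 57.3% of those of the monoculture (1239 of 2162).

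**Figure D1:**
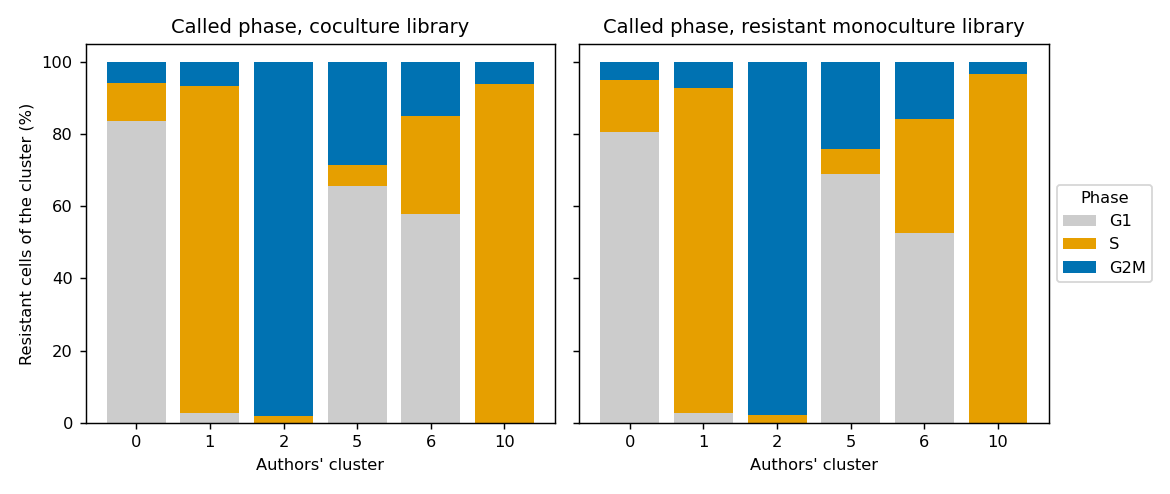
Share of the resistant cells of each cluster that the authors called G1, S or G2M, as stacked bars on an axis in percent from 0, with 1 bar for each of the 2 libraries. Clusters 1 and 10 are almost wholly S, cluster 2 is almost wholly G2M, and G1 calls make up most of clusters 0, 5 and 6.

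The cluster took up nearly the same part of the resistant cells in the presence and absence of sensitive cells. It was 17.3% (16.3 to 18.3%) of the resistant cells of the 6 clusters in the coculture and 18.8% (17.9 to 19.7%) in the monoculture. With all annotated resistant cells as the denominator the shares were 16.3% (15.4 to 17.2%) and 18.2% (17.3 to 19.0%). The intervals overlap with the first denominator and not with the second, and with 1 library each the difference has no replicate check.

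Depth was high in these cells. The median was 32956 UMIs and 4928 genes per cell in the coculture and 38570.5 UMIs and 5218.5 genes in the monoculture, within the range of the other clusters (26666 to 42695 UMIs). The median mitochondrial share was 14.8% and 15.3%. The resistant transgene mCherry was detected in 100% of cluster 1 cells of the coculture and 73.6% of those of the monoculture, and mVenus had 0 UMIs in both. Since the authors assigned cells to a lineage by these transgenes, the coculture values follow from the annotation and are no check of it. At least 2 mCherry UMIs were found in 630 of 1025 and 617 of 1372 cells. A doublet score above 0.25 (scrublet) was found in 51 cells (4.98%) and 67 cells (4.88%), against 1.2% to 8.4% in the other clusters. All 7 luminal epithelial markers checked were present at 13.7 CPM (UMIs per 1e6 UMIs of the group) or more, while the summed level of the basal, fibroblast, endothelial and leukocyte markers was at most 4.47 CPM per list. The 2 libraries shared 60 barcode sequences, 17 of them among annotated cells.

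Genes for DNA replication were higher in cluster 1 than in the pool of the other resistant clusters, although many stood higher still in cluster 10. UMIs were summed over the cells of a group and library (34002258 and 51357048 UMIs in cluster 1, coculture first), expressed as CPM, and compared as log2 ratios with 1 CPM added. Of 2304 genes whose mean was at least 50 CPM, 21 were more than 2-fold higher in both libraries (0.911%) and 1 was more than 2-fold lower in both (0.0434%). The 21 became 5 of 2325 against an equal-weight mean of the 5 clusters. They became 2 of 2306 against clusters weighted to the phase make-up of cluster 1 and 1 of 2305 among S-called cells only. With a mean of at least 5 CPM, 74 of 8537 genes were higher (0.867%) and 3 were lower (0.0351%). Across the 2304 genes the log2 ratios of both libraries had a Pearson correlation of 0.975, as a description of genes that are not independent.

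FAM111B (ENSG00000189057, GRCh37 chr11:58874658-58894885) had the largest log2 ratio among genes of at least 50 CPM. It was at 95.2 CPM (92.0 to 98.6) in the coculture and 101 CPM (97.9 to 103) in the monoculture, against 13.0 and 13.1 CPM in the other clusters, a difference of 7.32-fold and 7.65-fold. HIST1H4C (ENSG00000197061, chr6:26104161-26104565), one of the histone H4 genes expressed with DNA replication, was at 1686 and 1246 CPM against 276 and 204 CPM, 6.10-fold and 6.12-fold higher. In both genes cluster 1 stood above clusters 0, 2, 5 and 6 in each library and below cluster 10. Folds given for single genes, here and below, are plain ratios of CPM, without the 1 CPM added in the log2 ratios. The size of the differences depended on what cluster 1 was set against. For FAM111B the log2 ratio of 2.78 and 2.84 became 1.36 and 1.34 against the equal-weight mean, 1.01 and 1.18 with phase weights and 0.99 and 1.15 among S-called cells. For HIST1H4C 2.60 and 2.61 became 1.41 and 1.26, 1.17 and 1.25, and 1.14 and 1.22 in the same order.

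The other genes among the 12 highest are given by what they encode. PCNA (ENSG00000132646, chr20:5095599-5107272), the sliding clamp of DNA polymerases, was at 176 and 220 CPM against 52.1 and 59.1 CPM (log2 ratio 1.74 and 1.88). In the coculture the PCNA ratio fell to 0.82 with phase weights and to 0.83 among S-called cells, below 2-fold. GINS2, a subunit of the replicative helicase complex, was 3.26-fold and 3.08-fold higher, and POLD3, a subunit of DNA polymerase delta, 2.98-fold and 3.07-fold higher. The helicase subunits MCM7 (log2 ratio 1.44 and 1.48) and MCM3 (1.41 and 1.45) moved by similar amounts. GMNN, which encodes geminin, the inhibitor of renewed origin licensing, had ratios of 1.36 and 1.46. Of the chromatin factors, HELLS was at 139 and 123 CPM against 48.5 and 41.2 CPM and ATAD2 at 234 and 189 CPM against 81.7 and 63.9 CPM.

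TK1 (thymidine kinase), also among the 12, was at 89.4 and 113 CPM against 30.6 and 38.8 CPM. TYMS (thymidylate synthase) had log2 ratios of 1.27 and 1.47 and DUT (dUTPase) of 1.02 and 1.14, which placed DUT just inside the 2-fold limit. EZH2, a histone methyltransferase at 0.99 and 0.98, and DEK at 0.95 and 1.12 lay just outside it. Other genes past the limit were E2F1, SLBP (the protein that binds the stem-loop of histone mRNA), RFC2, CENPU, FAM111A, FBXO5 and PCLAF. Genes of the list that Seurat uses to score S phase accounted for 10 of the 21, and the other 11 were in neither the S nor the G2M list.

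**Figure D2:**
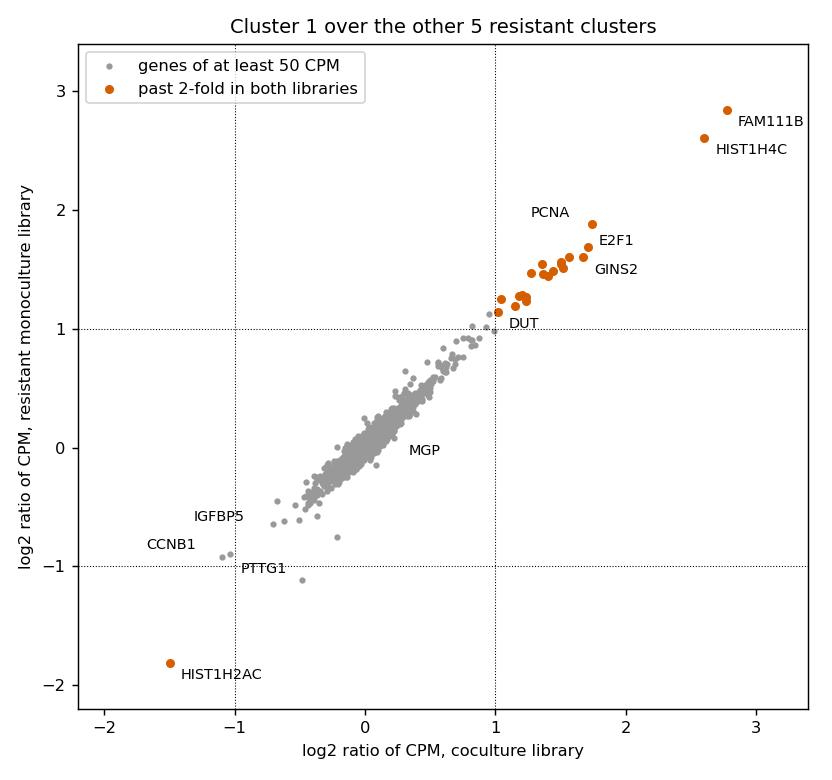
Log2 ratio of CPM, cluster 1 over the other 5 resistant clusters, for each gene of at least 50 CPM, with the coculture library on the x axis and the resistant monoculture library on the y axis. Dotted lines mark 2-fold, the 22 coloured points lie past it in both libraries, and FAM111B and HIST1H4C stand furthest to the upper right.

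Sequences upstream of the highest genes are shown because genes of DNA replication are textbook targets of E2F. Of the 12 genes with the highest ratios, 8 had an entry in the RefSeq promoter table (GRCh38.p14, 250 bases before to 50 after the start), and 7 of these held at least 1 of the E2F words TTTGGCGC, TTTGCCGC, TTTCGCGC and TTTCCCGC on either strand. Counted by promoter, since a gene can have several, that was 7 of 13. Among all 35116 promoters of that table, 1164 (3.31%) held one, and among its 27305 genes 1090 (3.99%) had at least 1 such promoter. Of the 12 genes with the lowest ratios, 9 had an entry and 0 of their 13 promoters held a word. The 100 bases directly before the start of 6 of the genes read as follows, with the words in capitals.
PCNA, chr20:5126623-5126722, minus strand: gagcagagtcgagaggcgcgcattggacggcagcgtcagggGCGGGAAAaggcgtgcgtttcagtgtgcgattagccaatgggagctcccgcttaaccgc
E2F1, chr20:33686386-33686485, minus strand: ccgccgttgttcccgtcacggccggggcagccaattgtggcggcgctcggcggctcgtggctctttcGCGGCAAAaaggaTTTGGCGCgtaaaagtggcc
GINS2, chr16:85688955-85689054, minus strand: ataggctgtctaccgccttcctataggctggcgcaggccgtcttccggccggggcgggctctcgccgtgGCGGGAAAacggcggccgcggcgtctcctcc
HELLS, chr10:94545688-94545787, plus strand: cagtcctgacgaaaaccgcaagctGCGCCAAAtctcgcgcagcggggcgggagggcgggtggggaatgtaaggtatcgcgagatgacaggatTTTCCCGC
MCM7, chr7:100101398-100101497, minus strand: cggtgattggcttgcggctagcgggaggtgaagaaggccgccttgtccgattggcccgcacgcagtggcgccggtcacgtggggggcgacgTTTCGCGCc
GMNN, chr6:24775313-24775412, plus strand: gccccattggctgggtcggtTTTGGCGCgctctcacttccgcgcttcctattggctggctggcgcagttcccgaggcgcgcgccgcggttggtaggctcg
E2F1 and HELLS each had 2 words within these 100 bases, and MCM7 had a second one further upstream. TK1 had an entry without these words, and FAM111B, HIST1H4C, POLD3 and ATAD2 had no entry. The counts above thus leave out FAM111B and HIST1H4C, the genes with the highest ratios. A match describes letters only and is not a measured binding site.

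The single gene more than 2-fold lower in both libraries was HIST1H2AC (ENSG00000180573, chr6:26124373-26139344), a histone H2A gene. It was at 32.1 CPM (30.2 to 34.0) and 22.7 CPM (21.4 to 24.0) in cluster 1 against 92.3 and 82.1 CPM in the other clusters, which is 0.347 and 0.276 of their level. It was also low in cluster 10, at 36.7 and 22.2 CPM, and highest in cluster 5, at 141 and 131 CPM. The call was lost with phase weights and among S-called cells, where 0 genes were more than 2-fold lower. Next in order came mitotic genes, CCNB1 (cyclin B1, log2 ratio -1.10 and -0.92) and PTTG1 (securin, -1.04 and -0.89), followed by IGFBP5 (an IGF-binding protein, -0.71 and -0.65), ARL6IP1 (-0.62 and -0.62) and the keratin KRT7 (-0.51 and -0.61). None of these passed 2-fold in both libraries. Another keratin, KRT81, differed by library, with -0.49 in the coculture and -1.11 in the monoculture. The lower level of CCNB1 was mainly a difference from cluster 2, which had 468 and 517 CPM against 80.2 and 88.3 CPM in cluster 1. In cells thinned to equal depth, CCNB1 was found in 53.3% and 55.8% of cluster 1 and 96.1% and 96.5% of cluster 2. In clusters 0, 5, 6 and 10 it was found in 49.2% to 62.2% of cells, a range that includes cluster 1.

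The histone genes were then looked at together, a choice made after the values of HIST1H4C and HIST1H2AC were seen. Of 21 histone genes whose mean was at least 5 CPM, 12 were higher in both libraries and 7 lower, beside 3622 higher and 3621 lower of all 8537 genes of that level. Past 2-fold were 4 and 2 of them, beside 74 and 3 of all. More than 2-fold higher were HIST1H4C, HIST1H1B (log2 ratio 2.23 and 2.27), HIST2H2AC (1.87 and 1.77) and, as plain folds, HIST1H1E (3.62-fold and 3.16-fold). More than 2-fold lower were HIST1H2AC and HIST1H2BD (-1.36 and -1.77). Most replication-dependent histone mRNAs lack a poly(A) tail and the 3' chemistry primes on poly(A), so the captured levels need not follow the total levels.

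The drug targets and their pathway were read from a list of 17 genes, of which 14 reached a mean of 5 CPM. In cluster 1, 11 of the 14 were higher in both libraries, 5 of them by more than 2-fold, and 2 were lower. Over all 8537 genes of that level, 3622 were higher, 74 of them by more than 2-fold (0.867%), and 3621 were lower. CCNE2, which encodes cyclin E2, the partner of CDK2 at entry into S phase, was 7.38-fold and 7.40-fold higher. It was at 36.4 and 26.1 CPM against 4.93 and 3.52 CPM. CCNE2 is also in the S list behind the phase calls. S-called cells of cluster 10 had 58.1 and 39.2 CPM of it, above the 38.7 and 27.8 CPM in those of cluster 1. E2F1 (ENSG00000101412, chr20:32263283-32274191), the first member of the E2F family, was 3.38-fold and 3.31-fold higher, and at 74.3 CPM (71.5 to 77.3) in the coculture. It was no longer past 2-fold with phase weights (log2 ratio 0.76 and 0.80), among S-called cells (0.75 and 0.77) or among G1-called cells (0.49 and 0.21). CCNE1 (cyclin E1) had log2 ratios of 1.15 and 1.02 and CDK2 of 1.02 and 1.16.

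Upstream of E2F the ratios were smaller. CDK4, a direct target of ribociclib, was at 143 and 150 CPM against 100 and 102 CPM (log2 ratio 0.51 and 0.56). CCND1 (cyclin D1) was at 1569 and 1688 CPM against 1541 and 1691 CPM, and RB1 had ratios of 0.15 and 0.20. CDK6, the other target, was close to absent in these cells, at 0.03 and 0.04 CPM in cluster 1. CDKN1A, the CDK inhibitor p21, was at 13.3 and 8.43 CPM against 14.8 and 8.93 CPM.

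Counts over the other gene lists describe how far the difference reached. In the S phase list, 40 of 40 measured genes were higher in both libraries and 29 by more than 2-fold, with a median log2 ratio of 1.42 and 1.48 beside -0.01 and 0.01 over all genes. The S list took part in the phase calls, and its genes in the clustering, so this count restates how the cells were grouped. The median was 0.87 and 0.86 against the equal-weight mean, 0.54 and 0.64 with phase weights, 0.53 and 0.63 among S-called cells and 0.32 and 0.20 among G1-called cells. In the G2M list, 30 of 53 genes were higher and 15 lower, with a median of 0.02 and 0.14. AURKB was the highest of those named, at 0.70 and 0.79, and HMMR was among the lowest, at -0.98 and -0.76. The sign of the G2M median was not stable. Against an equal-weight mean of the other clusters it was -0.056 in the coculture and -0.034 in the monoculture, and in the coculture it was also below 0 among cells with 2 or more mCherry UMIs (-0.074) and among cells with a mitochondrial share under 20% (-0.019).

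Genes of luminal identity leaned the other way. Of 19 measured, 16 were lower in cluster 1 than in the pool of the other clusters in both libraries and 3 higher. The median was -0.19 and -0.20, with 0 past 2-fold. Over all 8537 genes of at least 5 CPM 3621 were lower and 3622 higher, with a median of -0.01 and 0.01. KRT19 was at 2015 and 2469 CPM against 2694 and 3411 CPM, and CLDN4, a tight junction gene, had ratios of -0.47 and -0.42. ESR1, the estrogen receptor, differed little, at 17.2 and 13.7 CPM against 17.3 and 14.4 CPM. Among estrogen-induced genes 11 of 23 were higher and 6 lower, which is near the 3622 higher of all 8537 genes, and TFF1 was at 6404 and 5122 CPM against 5324 and 4473 CPM.

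The counts of the remaining lists are to be read against 3622 higher and 3621 lower of all 8537 genes. In these lists no measured gene passed 2-fold in both libraries, apart from a list of genes noted in earlier work on these data that held HIST1H4C and SCIN (-1.07 and -1.31). Cytosolic ribosomal protein genes were lower in 61 of 73 cases, with a median of only -0.05 and -0.05. Interferon-stimulated genes were lower in 9 of 11 (ISG15 -0.48 and -0.48) and hypoxia genes in 10 of 16 (ANKRD37 -0.60 and -0.82). Immediate early genes were higher in 11 of 16 and genes of the ATF4 stress response in 10 of 14, led by PCK2 at 0.69 and 0.56. Targets of p53 were lower in 10 of 15. Basal, fibroblast, endothelial and leukocyte lists had 0 genes at 5 CPM.

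**Figure D3:**
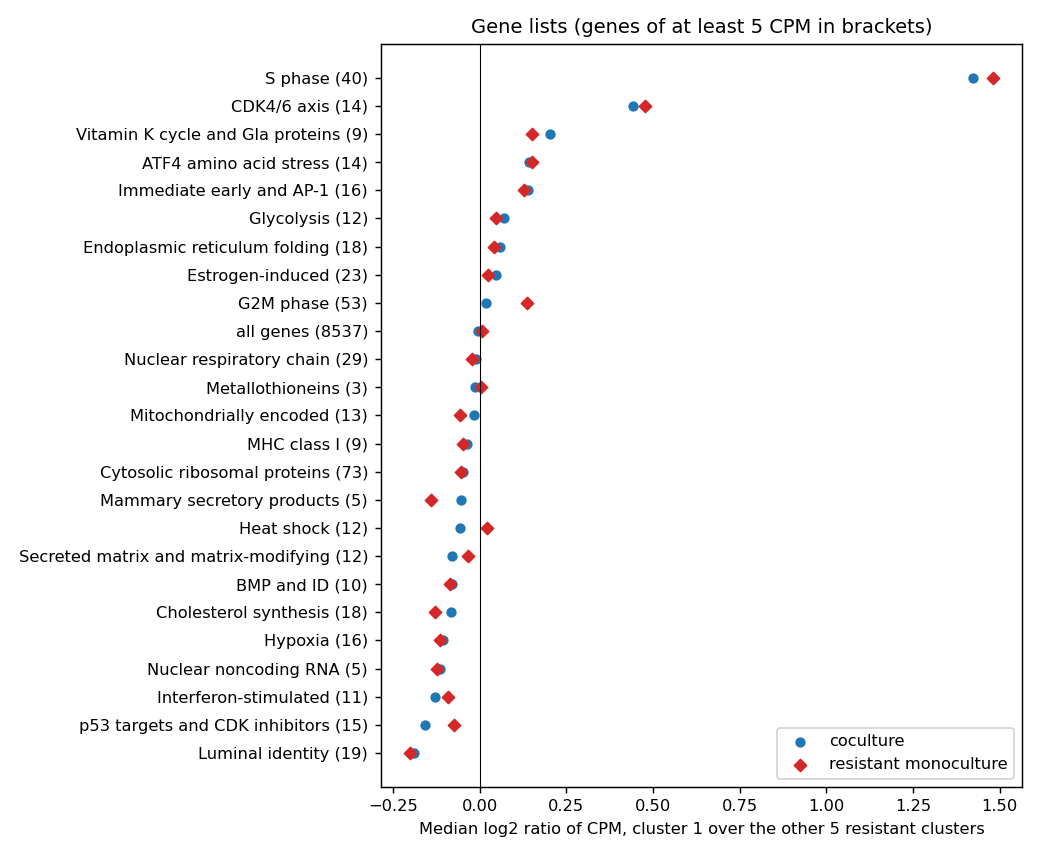
Median log2 ratio of each gene list in cluster 1 over the other resistant clusters, for genes of at least 5 CPM, with 1 point per library. The S phase list lies at 1.42 and 1.48, the CDK4/6 list comes next at 0.44 and 0.48, and the luminal identity list lies lowest of those described, at -0.19 and -0.20.

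MGP (ENSG00000111341, chr12:15033798-15038791) was abundant in cluster 1 but not particular to it. Its level was 6952 CPM (6924 to 6980) in the coculture and 7085 CPM in the monoculture. Cluster 0 was above that, at 7405 and 7731 CPM, and clusters 5 (6262 and 6493 CPM) and 2 (5469 and 5730 CPM) were somewhat below. Clusters 6 and 10 stood apart, at 1041 and 1423 CPM and at 989 and 1169 CPM. Against the 5 other clusters together the log2 ratio was 0.23 and 0.15, and among G1-called cells it turned to -0.083 and -0.31. The median over all genes in that G1 comparison was -0.13 and -0.16. The MGP ratio was 0.72 and 0.65 against the equal-weight mean, 0.54 and 0.42 with phase weights and 0.57 and 0.47 among S-called cells. As a label, MGP thus separates cluster 1 from clusters 6 and 10 and not from clusters 0, 2 and 5.

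Among single cells MGP spread widely. After each cell was thinned to 10000 UMIs, the median was 60 MGP UMIs in both libraries, with quartiles of 32 and 99 in the coculture and 33 and 102 in the monoculture. Cells of clusters 6 and 10 had medians of 6 to 9 UMIs. Fewer than 25 thinned UMIs were found in 203 of 1025 coculture cells (19.8%, 17.4 to 22.4%) and 261 of 1372 monoculture cells (19.0%, 17.0 to 21.2%) of cluster 1, against 93.1% and 85.1% in cluster 10. Of the other vitamin K and Gla genes, VKORC1, the epoxide reductase that recycles vitamin K, was 1.54-fold and 1.56-fold higher in cluster 1, and PRRG4 had log2 ratios of 0.59 and 0.67. This list had 5 of 9 genes higher and 2 lower, against 3622 and 3621 of all 8537 genes.

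**Figure D4:**
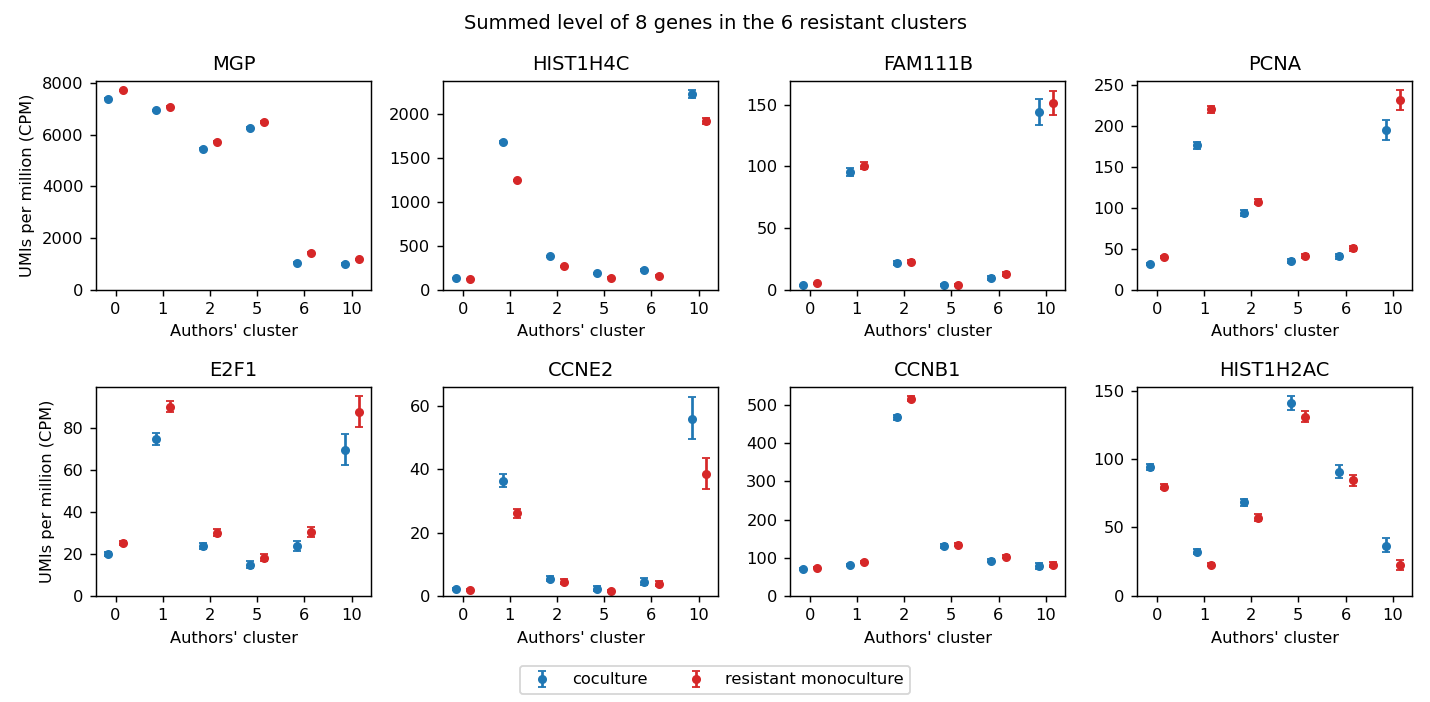
Level in CPM of named genes in each of the 6 resistant clusters, with 1 point per library and, as bars, exact 95% Poisson intervals for counting error. HIST1H4C and FAM111B stand highest in clusters 1 and 10, whereas MGP is high in clusters 0, 1, 2 and 5 and low in 6 and 10.

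Cluster 10, which holds 145 and 148 resistant cells, was the cluster nearest to cluster 1 (root mean square log2 difference 0.26 over 2348 genes, against 0.30 to 0.40 for the other clusters) among genes of at least 50 CPM. Over genes of at least 5 CPM the order turned, with 0.32 for cluster 10 and 0.29 for cluster 2. Clusters 1 and 10 were both almost wholly S. Even so, 7 genes were more than 2-fold higher in cluster 1 than in cluster 10 in both libraries (0.298%) and 2 were lower (0.0852%). The higher genes were led by MGP (7.03-fold and 6.06-fold). MUCL1, a small secreted mucin-like gene, followed at 365 and 221 CPM against 123 and 56.4 CPM. The trefoil factors TFF1 (3.05-fold and 2.81-fold) and TFF3 (3.63-fold and 2.53-fold), both estrogen-induced, the chaperone CLU (clusterin, 2.73-fold and 3.02-fold), the ribosomal protein paralogue RPL22L1 (2.82-fold and 2.80-fold) and CHCHD7 completed the 7. TFF1 followed the same divide as MGP, with medians after thinning of 44 and 32 UMIs in cluster 1. Clusters 0, 2 and 5 had 25 to 41 UMIs, and clusters 6 and 10 had 8.5 to 13. The 2 lower genes were HSPB11, at 40.6 and 36.9 CPM against 110 and 85.4 CPM, and MARCKSL1. The latter was at 60.9 and 86.1 CPM against 129 and 178 CPM.

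Replication genes were not higher in cluster 1 than in cluster 10. In the S phase list 37 of 41 genes were lower in cluster 1 in both libraries, with a median log2 ratio of -0.26 and -0.29, and 0 passed 2-fold. Over all 8476 genes of at least 5 CPM 3507 were lower and 2783 higher, with a median of -0.03 and -0.03. HIST1H4C was at 1686 and 1246 CPM against 2232 and 1928 CPM. The median deposited S score was 0.222 and 0.226 in cluster 1 and 0.294 and 0.307 in cluster 10. E2F1 differed little, at 1.07-fold and 1.03-fold.

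Both lower genes lie on the short arm of chromosome 1 (HSPB11 at chr1:54382247-54411372 and MARCKSL1 at chr1:32799440-32801834, GRCh37), and the ratios were therefore taken by chromosome arm, a choice made after these values were seen. Over genes of at least 20 CPM, 217 of 272 genes of 1p were lower in cluster 1 than in cluster 10 in both libraries, with a median log2 ratio of -0.38 and -0.42. Over all 4633 genes of that level 2295 (49.5%) were lower and 1387 (29.9%) higher, with a median of -0.05 and -0.05. The 77 genes of 11p leaned the opposite way, with 59 higher and a median of 0.26 and 0.23. Against cluster 6, the other MGP-low cluster, 1p had a median of -0.32 and -0.33 (207 of 266 genes lower) and 11p of 0.29 and 0.30. The other 38 arms had medians between -0.14 and 0.09 in these comparisons. Against clusters 0 and 5 the 1p median lay between -0.01 and 0.05, and against cluster 2 it was -0.14 and -0.15 (208 of 261 genes lower). In that last comparison 60.3% of all 4700 genes were lower, with a median of -0.07 and -0.08, and the lowest of the other arms had -0.14 and -0.15.

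The shift on 1p was not spread over the whole arm. In windows of 10 Mb, the first 60 Mb of chromosome 1 had medians from -0.48 to -0.61 against cluster 10, while the windows from 60 to 120 Mb lay between -0.28 and 0.05. On chromosome 11 the first 10 Mb had 0.40 and 0.36 against cluster 10. Counted per cell, genes of 1p made up a median of 3.24% and 3.25% of the UMIs of a cluster 1 cell, against 4.40% and 4.42% in cluster 10 and 4.30% and 4.34% in cluster 6. Above the midpoint between clusters 1 and 10 (3.82% and 3.83%) were 66 cells (6.44%) and 85 cells (6.20%) of cluster 1 but 87.6% and 94.6% of cluster 10. Cluster 2 lay between, with 24.2% and 24.2% of its cells above it, and its cells under 25 MGP UMIs (32.7% and 31.3%) had a median 1p share of 4.04% and 4.14%. Cells of cluster 1 under 25 MGP UMIs had a median of 3.37% and 3.32%, beside 3.21% and 3.23% in the rest. As a description over the 1025 and 1372 cells, Spearman's rho of MGP with the 1p share was -0.25 and -0.21, and it was -0.10 and -0.12 in cluster 0. DNA was not measured, and the source of the shift was not tested.

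**Figure D5:**
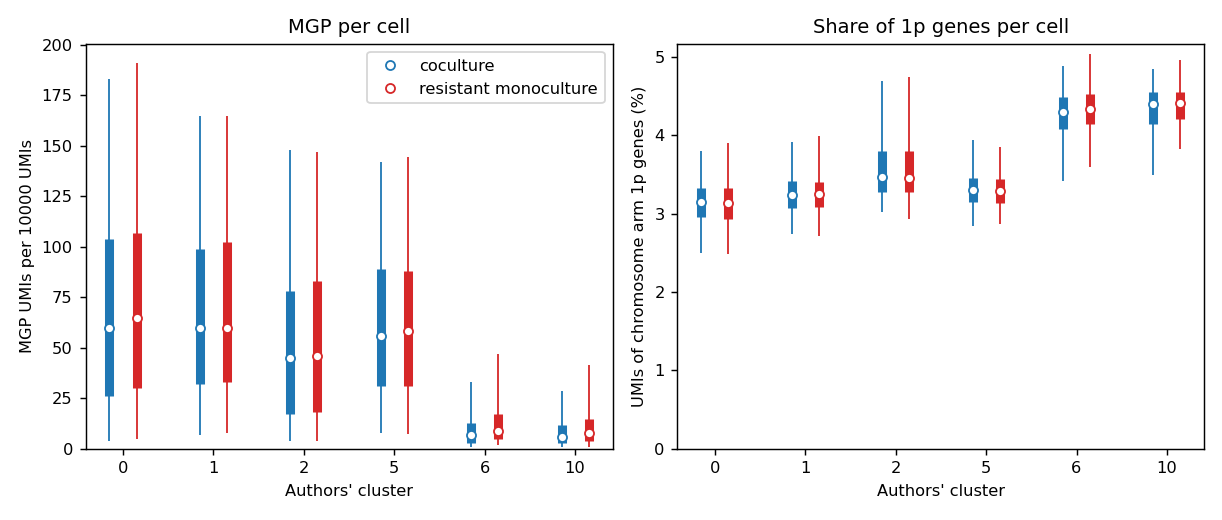
MGP UMIs per cell after thinning to 10000 UMIs and the percent of a cell's UMIs on genes of 1p, for the resistant cells of the 6 clusters. Circles are medians, thick bars quartiles and thin lines the 5% to 95% range of cells, with 1 bar per library. The medians of cluster 1 lie with those of clusters 0, 2 and 5 at high MGP and a low 1p share, with a wider spread of 1p in cluster 2, and clusters 6 and 10 have medians of 6 to 9 UMIs and a share above 4%.

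Cluster 2, at 0.30 over 2388 genes of at least 50 CPM, differed from cluster 1 by the other end of the cell cycle. Here 6 genes were more than 2-fold higher in cluster 1 (0.251%) and 32 were lower (1.34%), 18 of the 32 being in the G2M list. The 6 higher genes were HIST1H4C (log2 ratio 2.14 and 2.24), FAM111B (2.09 and 2.10), E2F1 (1.61 and 1.56), MCM3, SLBP and POLD3. The mitotic genes HMMR (-2.70 and -2.71), CCNB1 (-2.53 and -2.54), PLK1 (the Polo-like kinase, -2.30 and -2.27), AURKA (Aurora kinase A, -2.25 and -2.26) and PTTG1 (-2.35 and -2.21) were the lowest. CCNB1 was at 80.2 and 88.3 CPM in cluster 1 and 468 and 517 CPM in cluster 2. All 53 genes of the G2M list that were measured were lower in cluster 1 in both libraries, 36 of them past 2-fold. Of all 8574 genes of at least 5 CPM 4849 were lower, 74 of them past 2-fold (0.863%), and 2447 were higher. The G2M list took part in the phase calls, and its genes in the clustering. The count for that list thus restates how the cells were grouped.

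S-called cells of cluster 0, 263 in the coculture and 460 in the monoculture, offered a comparison at the same called phase and the same side of the MGP divide, chosen after the data were seen. Their median S score was 0.0305 and 0.0378, against 0.233 and 0.235 in the S-called cells of cluster 1. Where a score above 0.1 was required, 19 and 60 cells of cluster 0 were called S, against 816 and 1135 of cluster 1. The shared call thus joined cells of unlike scores. Relative to all S-called cells of cluster 0, 27 genes were more than 2-fold higher in cluster 1 (1.18%) and 0 were lower (0.0%). TYMS was at 109 and 129 CPM against 22.1 and 28.2 CPM, and PCNA at 185 and 228 CPM against 63.1 and 86.8 CPM. MKI67, the proliferation marker Ki-67, was 4.62-fold and 3.64-fold higher. In the S list 40 of 40 genes were higher with a median of 0.94 and 0.91. In the G2M list 49 of 50 were higher, with a median of 0.76 and 0.65, beside 3979 of all 8455 genes higher and 2569 lower. The S score is made from the S list, so the S list count restates the gap in that score. The same holds for the G2M list and the G2M score. Its median was 0.0778 and 0.0727 in these cells of cluster 1 and -0.0282 and -0.0275 in those of cluster 0. MGP ran the other way, at 6937 and 7174 CPM against 8147 and 7854 CPM.

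Within cluster 1 the phase calls sorted the same genes. HIST1H4C was at 1767 and 1304 CPM in S-called cells, 1025 and 716 CPM in G2M-called cells and 230 and 120 CPM in G1-called cells. FAM111B was at 101 and 105 CPM in S, 47.1 and 59.5 CPM in G2M and 5.61 and 3.82 CPM in G1. CCNB1 was highest in G2M-called cells, at 136 and 150 CPM. MGP varied less, between 5528 and 7434 CPM over the phases.

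The 29 and 36 G1-called cells of cluster 1 were set against the G1-called cells of the other clusters. Of 2173 genes, 0 were more than 2-fold higher (0.0%) and 2 were lower (0.092%). Smaller differences were common, with 1242 genes lower and 351 higher in both libraries, a median of -0.13 and -0.16 and a root mean square log2 difference of 0.296, beside 0.244 in the comparison of all cells. The lower ones were KRT81 (log2 ratio -1.89 and -2.82) and S100P (-1.48 and -1.81). All 13 mitochondrially encoded genes were higher against that background, with a median of 0.49 and 0.55, the most abundant named one being MT-ATP6 at 0.56 and 0.58. The mitochondrial share of these cells had a median of 25.2% and 27.0%, against 14.6% and 15.1% in S-called cells of the cluster, and their median depth was 23576 and 20028 UMIs against 33183 and 38860. The part of quality in these values was not tested.

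Cluster 1 was then compared between the coculture and the monoculture. Of 2320 genes of at least 50 CPM, 0 were more than 2-fold higher in the coculture (0.0%) and 0 were lower (0.0%), and the root mean square log2 difference was 0.222, beside 0.219 in the other resistant clusters and 0.244 between cluster 1 and those clusters within a library. The largest differences were CLU (1142 CPM in the coculture and 637 CPM in the monoculture, log2 ratio 0.84), SNHG25 (0.79) and NMT1 (0.79) on one side and NOP53 (-0.66) and the secreted disulfide isomerase AGR2 (-0.64) on the other. The same genes moved alike elsewhere, with CLU at 0.75 and AGR2 at -0.57 in the other clusters. The S phase list had a median of -0.04, and HIST1H4C had 0.44 both in cluster 1 and in the pool of the other clusters. Taken singly, those clusters ranged from 0.16 in cluster 0 to 0.53 in cluster 2. FABP7, a fatty acid-binding protein abundant in the sensitive cells of the monoculture (1398 CPM), was at 6.85 CPM in cluster 1 of the coculture and 0.41 CPM in that of the monoculture. The log2 ratio was 2.48 in cluster 1 and 2.59 in the other resistant clusters, and the part of free RNA from sensitive cells of the same library was not tested.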

How the data were processed

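RNA of single CAMA-1 cells was sequenced in 3 libraries, of which the coculture and the resistant monoculture hold cluster 1. The authors counted UMIs with Cell Ranger (version 3.0.2 in the submitters' processing notes) on GRCh37, with the transgenes added, and deposited raw counts per gene and barcode. Their deposited annotation of kept cells, made with Seurat, gives UMI and gene counts, the S and G2M score, the mitochondrial percent, phase, cluster and population. A further 8 columns of it were not used. Stated limits were 3000 to 7000 genes, 2000 to 60000 UMIs and under 30% mitochondrial UMIs. The methods also state that doublets predicted by scrublet at a threshold of 0.25 were taken out and that a kept cell needed at least 2 UMIs of a transgene, yet the annotation holds cells with fewer in the raw counts and cells that scored above 0.25 here.

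UMIs on gene symbols were summed per cluster and library, expressed as CPM and compared as log2(CPM + 1) ratios. Rows without a symbol (0.523% to 0.591% of UMIs) were left out. A gene counted as different when this ratio was past 2-fold in the same direction in both libraries. Folds given for single genes are plain ratios of CPM. Intervals are exact at 95%, and a count of 0 was given a limit of 3 counts. Doublets were scored again, and none removed, with scrublet in scanpy 1.11.5. Other steps used Python 3.11.15, numpy 2.4.6, scipy 1.17.1, pandas 2.3.3 and, for TMM scaling only, edgeR 4.0.16. Simulated data with known changes were used to test the ratios and the phase calls.

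The cluster, the 29 gene lists and the rule for named genes were chosen with earlier results of these data known. In the lists, 7 genes were matched by newer symbols and 8 were not matched. Named genes were MGP and the transgenes, the 12 highest and 12 lowest against the other clusters, the 6 highest and lowest in G1 cells and between libraries, the 5 highest and lowest against clusters 10 and 2, and the 2 most different genes of each list. Other genes were named after their values were seen, and 1 result is not reported here. Gene positions are of GRCh37 and promoters of GRCh38.p14, both from annotations other than the authors'. Alternatives covered the cells, phase calls, pseudocount, minimum level, scaling and comparison group. S-called cells and the settings by chromosome arm were added after seeing the data.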

Additional observations from a re-analysis of the deposited data

Results flagged for a closer look

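The 14 cells of cluster 1 that were annotated as sensitive, all from the coculture, were left out of the values above and drew attention because their MGP level was far above that of the sensitive monoculture. Their summed UMIs gave 4923 CPM of MGP (exact Poisson interval 4722 to 5130, counting error only), against 404 CPM in 3329 sensitive cells of the monoculture, 1041 CPM in all 2059 sensitive cells of the coculture and 6952 CPM in resistant cells of cluster 1 in the coculture. FABP7 was at 15.3 CPM (7 UMIs) in the 14 cells and 1398 CPM in the sensitive monoculture. They held 15 mVenus UMIs and 0 mCherry UMIs, which allows up to 6.55 CPM, and 1 of the 14 had 2 or more mVenus UMIs. In all, 9 were called S, 1 had a scrublet score above 0.25, and the median share of UMIs on genes of 1p was 3.102%, beside 3.237% in resistant cells of the cluster in the coculture and 3.627% in the sensitive monoculture. On 11p these shares were 1.21%, 1.30% and 1.07%. Such cells were not particular to cluster 1. Clusters 0, 2, 5, 6 and 10 held 43, 34, 9, 20 and 1 sensitive cells of the coculture. Cells were put into clusters by their expression, so levels near those of cluster 1 in part restate the grouping. With 14 cells of 1 library the difference in MGP has no replicate check, and its source was not tested.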

How the results depend on the processing

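The share of resistant cells in cluster 1 was 16.3% in the coculture and 18.2% in the monoculture with all annotated resistant cells as denominator. The share of its cells in S or G2M, 97.2% in the coculture and 97.4% in the monoculture, was 93.7% and 93.8% by own calls on cells thinned to 5000 UMIs, 94.8% and 95.6% by own calls on unthinned cells, 83.5% and 87.8% where a deposited score above 0.1 was required, and 98.5% in monoculture cells with 2 or more mCherry UMIs.

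The 21 higher genes of 2304 became 68 of 6672 with a minimum of 10 CPM and 84 of 13094 with no filter beyond 50 UMIs. With totals that left out mitochondrial and ribosomal protein genes they became 34 of 3294. Each of these settings tests more genes. The 21 became 5 of 2325 against the equal-weight mean of the other clusters and 0 of 2173 in G1-called cells. They became 2 of 2306 against clusters weighted to the phase make-up of cluster 1 and 1 of 2305 in S-called cells only. With the same numbers tested, the 1 lower gene became 2 at 10 CPM, 6 with no filter and 3 against the equal-weight mean. It became 2 in G1 cells and 0 both with the phase weights and in S-called cells. With 2 or more mCherry UMIs it became 3 of 2320, and with a mitochondrial share under 20% 3 of 2318. Between libraries, G1-called cells gave 8 higher and 5 lower genes, where all cells of the cluster gave 0 and 0 of 2320. The G1 counts rest on 29 and 36 cells with a median mitochondrial share of 25.2% and 27.0%. The part of cell number and quality in these counts was not tested.

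Of 370 ratios of genes and lists under an alternative, 362 kept the sign of the main value. The sign turned in G1-called cells for MGP (-0.083 in the coculture and -0.31 in the monoculture), IGFBP5 in the coculture (0.060) and CCNB1 in the monoculture (0.13), and for the G2M list against the equal-weight mean (-0.056 and -0.034) and, in the coculture, with 2 or more mCherry UMIs (-0.074) and with a mitochondrial share under 20% (-0.019). Among G1-called cells the median over all genes was itself -0.13 and -0.16. The cause of these turns was not tested. Against cluster 10, and not the pool of the other clusters, medians of 1p lay between -0.49 and -0.31 under all settings run. Those of 11p lay between 0.18 and 0.32. Against clusters 0 and 5 the 1p median lay between -0.01 and 0.05 in the main setting. No paired analysis was possible because each condition had 1 library, and no replicate could be left out for the same reason. Depth per cell limits single-cell shares of genes of few UMIs, and the 29 and 36 G1-called cells limit every value in G1.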
